A study of Mus musculus with 48 samples.

Results

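Kupffer cells are the macrophages that live in the sinusoids of the liver, where they clear particles, bacteria and worn red cells from the portal blood. They depend on signalling through the colony stimulating factor receptor Csf1r, carry scavenger, lectin and complement receptors, and secrete proteins of innate defence such as the C1q chains. The transcripts of 10 such markers were followed here in the livers of mice given dichloroacetic acid (DCA), a by-product of water chlorination that causes liver enlargement and liver tumours in mice. The set was defined by gene symbol, with earlier results of these data known. It held Clec4f, Adgre1, Cd68, Vsig4 and Marco as surface or lysosomal markers, Csf1r as the growth factor receptor, and Cd5l, C1qa, C1qb and C1qc as secreted proteins. Of the 11357 genes listed in the deposited tables, 9 markers were among the 11275 genes listed for frozen liver (FROZ) and 6 among the 6673 listed for formalin-fixed paraffin-embedded liver (FFPE). The expression of Marco, a scavenger receptor, was not analysed here, and that of Clec4f, Adgre1 and Vsig4 was analysed in FROZ alone.

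The livers came from 24 male B6C3F1 mice, 4 weeks old at the start, which drank water with DCA at 0, 1.0, 2.0 or 3.5 g/L for 6 days, an estimated daily intake of 198, 313 or 427 mg/kg-d in the DCA groups. Each dose group held 6 animals, the vehicle controls drank water without DCA, and every animal gave 1 FROZ and 1 FFPE library, 48 in all. The RNA was measured by TempO-Seq, in which pairs of detector oligos are ligated on their target transcript, amplified and sequenced. The FROZ libraries were made from purified RNA and the FFPE libraries from lysed sections of partly different liver lobes of the same animal. Whole tissue was used for both, so a marker transcript is measured in the RNA of all liver cells together.

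Values are log2(CPM + 1), where CPM are the reads of a gene scaled so that each library's listed genes sum to 1000000. The recovered depth was 6.69 to 9.84 M reads (M for 1000000) for FROZ and 1.83 to 6.01 M reads for FFPE, so that 1 read was worth 0.102 to 0.150 CPM in FROZ and 0.166 to 0.546 CPM in FFPE. FROZ libraries correlated with the others of their group at a median r of 0.982 to 0.989 and FFPE libraries at 0.521 to 0.853, the lowest being animal 49 at 198 mg/kg-d. Levels of different genes are not compared, since the oligos of each gene capture with their own efficiency. In bulk liver, fewer Kupffer cells and less marker RNA per cell cannot be told apart.

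In FROZ liver the markers were lower at the highest dose. At 427 mg/kg-d, 6 of the 9 listed markers fell against the vehicle controls (Adgre1, Csf1r, Cd5l, C1qa, C1qb and C1qc; limma, FDR under 0.05 over all genes) and 0 rose, where 30.1% of all genes were called, 7.33% as lower and 22.7% as higher. All 9 estimates were negative, with a median log2 difference of -0.46 against 0.10 over all genes of the table. None of the 6 reached the study's threshold for a differentially expressed gene (FDR under 0.05 and more than 2-fold), which 3.5% of genes passed. At 198 mg/kg-d and at 313 mg/kg-d, 0 of 9 markers were called by limma, where 1.56% and 26.7% of genes were. At an unadjusted p under 0.05 the counts were also 0 of 9 at both doses, against 17.1% and 37.3% of genes, and 6 of 9 at 427 mg/kg-d against 39.7%. The exact rank sum test with the same adjustment called 4 of the 9 at 427 mg/kg-d.

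**Figure D1:**
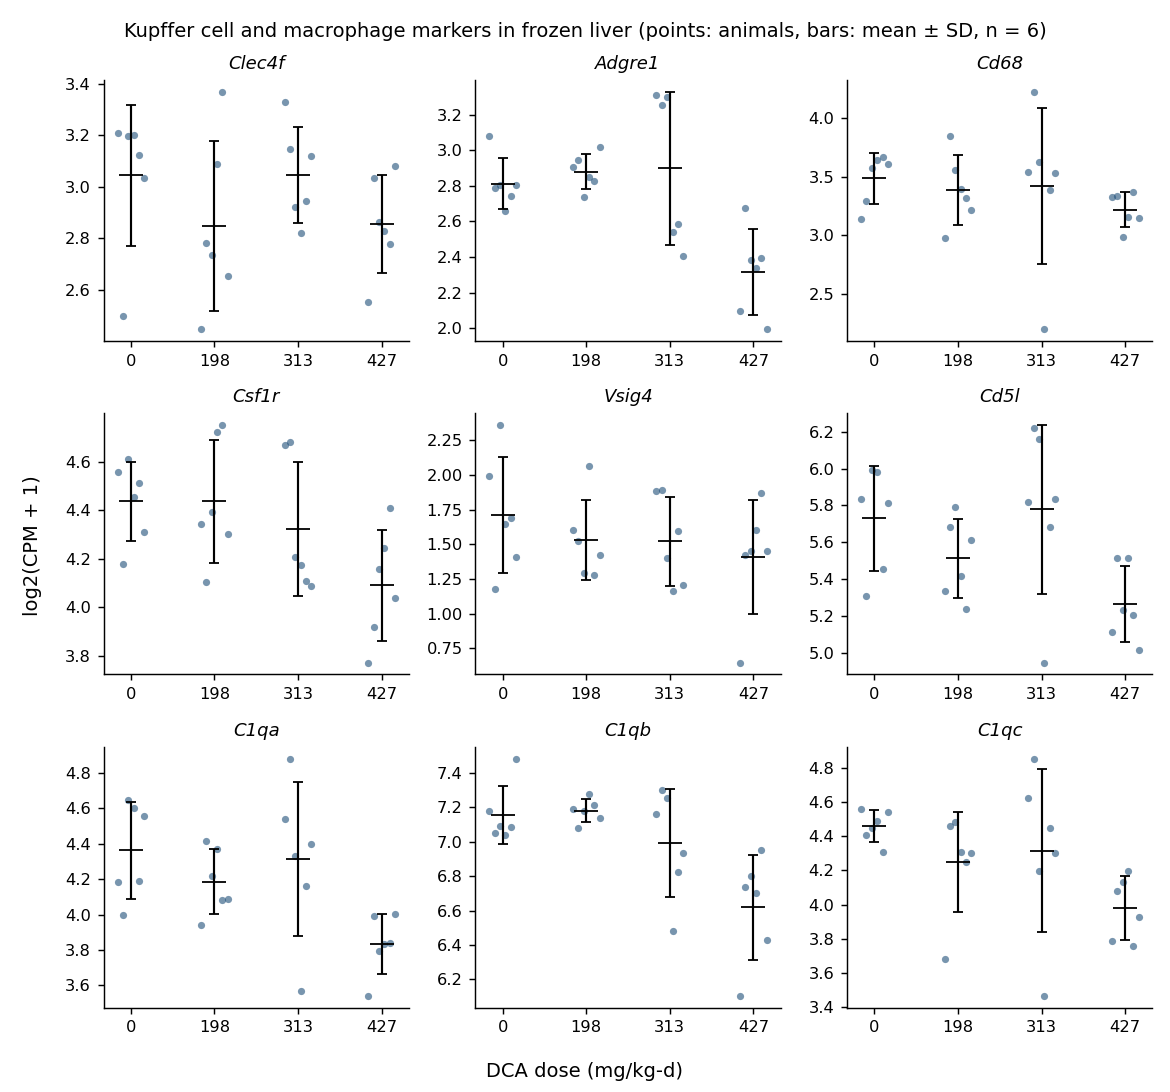
Level of each of the 9 markers listed in FROZ liver, as log2(CPM + 1) on the vertical axis, by DCA dose in mg/kg-d on the horizontal axis; points are animals and bars the mean with SD of 6 animals, and each panel has its own vertical scale. For C1qb and C1qc the 6 animals at 427 mg/kg-d lie below all 6 controls, and the largest SD of Adgre1, Cd68, Csf1r, Cd5l, C1qa, C1qb and C1qc is at 313 mg/kg-d.

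Clec4f, a lectin receptor that in mice marks Kupffer cells, lay between 2.50 and 3.21 in the FROZ controls, with a median of 3.16. At 427 mg/kg-d it lay between 2.55 and 3.08, with a median of 2.84. The groups overlapped, and no treated animal was below the lowest control, animal 4. The log2 difference was -0.19 ± 0.15 (SE, n = 6 per group; 95% interval -0.49 to 0.12; FDR 0.370), so a decrease of the size seen for the C1q chains lies near the edge of this interval.

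Adgre1 encodes an adhesion G protein-coupled receptor used as a general label of mouse tissue macrophages. Its values were 2.66 to 3.08 in controls (median 2.80) and 2.00 to 2.67 at 427 mg/kg-d (median 2.36), where 5 of 6 animals were below all controls. The difference was -0.50 ± 0.15 (FDR 0.0140), or 29.2% lower on the CPM + 1 scale. At 313 mg/kg-d the animals separated into 3 with values of 3.25 to 3.31, above all controls, and 3 with values of 2.41 to 2.58, below all controls, so that the mean there, 2.90, described no animal.

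Cd68, a lysosomal membrane glycoprotein of phagocytes, ranged from 3.14 to 3.66 in controls (median 3.59) and from 2.99 to 3.37 at 427 mg/kg-d (median 3.24). The groups overlapped, with 1 treated animal below all controls, and the difference was not called (-0.27 ± 0.21, FDR 0.363). Vsig4, a complement receptor of resident macrophages, was the least deeply measured marker, with 5 to 38 reads per FROZ library. It lay between 1.17 and 2.36 in controls and between 0.65 and 1.87 at 427 mg/kg-d (-0.30 ± 0.20, FDR 0.270). The 95% interval for Vsig4, -0.71 to 0.11, held both no change and decreases as large as those of the called markers.

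Csf1r (GRCm38 chr18:61100598-61132149), the receptor through which macrophages receive their survival signal, had FROZ values of 4.18 to 4.61 in controls (median 4.48) and 3.77 to 4.41 at 427 mg/kg-d (median 4.10). The ranges overlapped, although 4 of 6 treated animals were below all controls. The difference was -0.35 ± 0.13, or 21.4% lower, and its FDR of 0.0486 was the closest to the threshold among the called markers. The call was lost when any of 13 animals was left out in turn (3, 5, 6, 7, 49, 51, 54, 75, 76, 97, 98, 99 or 102; FDR 0.0511 to 0.123).

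Cd5l, a secreted scavenger protein made by tissue macrophages, ranged from 5.31 to 5.99 in controls (median 5.82) and from 5.02 to 5.52 at 427 mg/kg-d (median 5.22), with 4 of 6 treated animals below all controls. The difference was -0.46 ± 0.16 (FDR 0.0313), 27.4% lower. The FDR rose to between 0.0505 and 0.0749 when animal 3, 5, 6, 8, 97, 99, 101 or 102 was left out.

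The 3 chains of C1q, the recognition molecule that starts the classical complement pathway, fell together. C1qb lay between 7.04 and 7.48 in controls (median 7.09) and between 6.10 and 6.95 at 427 mg/kg-d (median 6.72). C1qc lay between 4.31 and 4.56 in controls (median 4.47) and between 3.76 and 4.20 at that dose (median 4.00). For both genes every animal at 427 mg/kg-d was below every control, as for 3.27% of all genes. C1qa lay between 4.00 and 4.65 in controls (median 4.37) and between 3.54 and 4.01 at 427 mg/kg-d (median 3.84), with 5 of 6 animals below all controls. The log2 differences were -0.53 ± 0.16 for C1qa (FDR 0.0112), -0.54 ± 0.13 for C1qb (FDR 0.0020) and -0.48 ± 0.16 for C1qc (FDR 0.0254), which correspond to levels 30.6%, 31.0% and 28.2% lower. The C1qc call was lost without animal 97 (FDR 0.0551) or animal 101 (FDR 0.0557).

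Animal 97 carried part of the count at 427 mg/kg-d. It was the lowest of its group for 5 of the 9 markers (Clec4f, Csf1r, Vsig4, C1qa and C1qb), and without it 3 markers were called, Adgre1, C1qa and C1qb. These 3 were called in each of the 24 fits that left out 1 animal. Median-ratio scaling of the libraries, which took the median difference over all genes from 0.10 to -0.01, gave a median of -0.61 over the 9 markers and 6 calls, all lower.

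**Figure D2:**
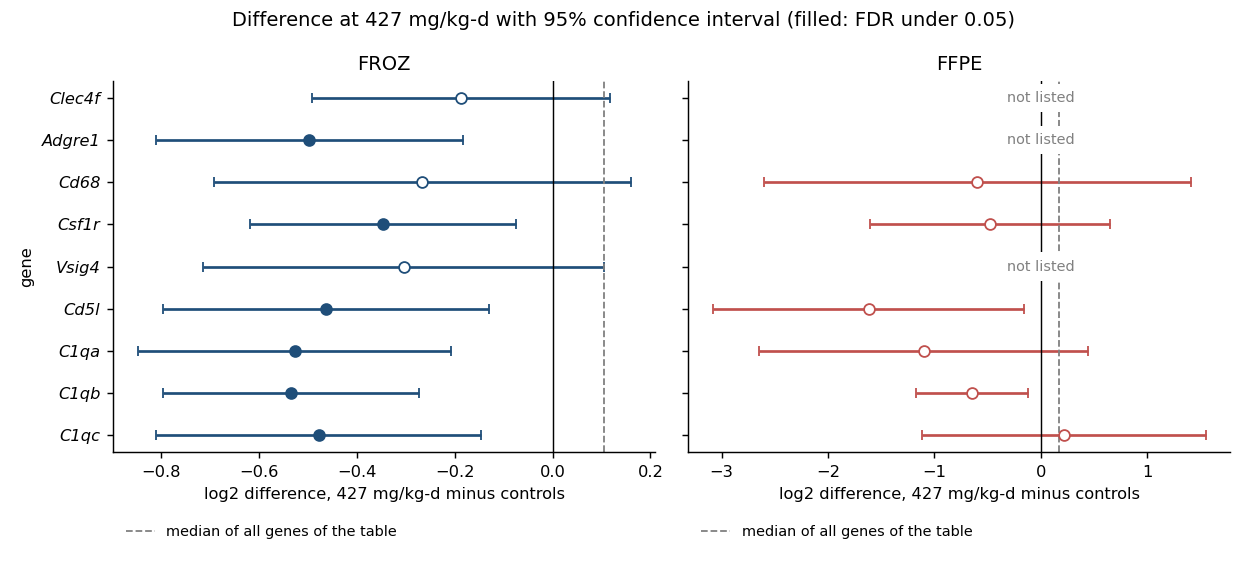
Log2 difference between 427 mg/kg-d and the vehicle controls for each marker (horizontal axis), with its 95% confidence interval, in FROZ (left) and FFPE (right) on separate scales; filled points have an FDR under 0.05 and the dashed line is the median over all genes of that table. In FROZ all 9 points lie left of 0 and 6 are filled, whereas in FFPE no point is filled and the intervals are wider.

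The C1q genes are also neighbours in the genome. On mouse chromosome 4 (GRCm38) they lie on the minus strand in the order C1qb, C1qc and C1qa within 18.7 kb, from 136880129 to 136898803, with 3616 bp and 2851 bp between them. The other markers lie apart from one another: Cd5l at chr3:87357881-87371073, Cd68 at chr11:69664213-69666153, Adgre1 at chr17:57358691-57483527, Clec4f at chr6:83644542-83656187 and Vsig4 at chrX:96247203-96293438. Marco is at chr1:120474538-120505024, and all 10 markers are annotated as protein-coding.

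Promoters from 250 bases before to 50 bases after the transcription start (RefSeq, GRCm38.p6) were found for 7 of the 10 markers, namely C1qb, C1qc, Cd5l, Cd68, Clec4f, Marco and Vsig4. They were searched on both strands for GAGGAA, the core word bound by PU.1 (Spi1), the transcription factor that directs macrophage development; its reverse complement is TTCCTC. The word was in 6 of the 7 (not in Clec4f), and in 28.3% of the 32851 mouse promoters of the same length. A match of 6 letters is a description of the sequence and does not show a bound site. The promoters of C1qb (chr4:136886151-136886450, minus strand), C1qc (chr4:136892865-136893164, minus strand) and Cd5l (chr3:87357631-87357930, plus strand) are shown because these secreted products were all lower at 427 mg/kg-d; the word is in capitals, 30, 193 and 66 bases before the start.
C1qb: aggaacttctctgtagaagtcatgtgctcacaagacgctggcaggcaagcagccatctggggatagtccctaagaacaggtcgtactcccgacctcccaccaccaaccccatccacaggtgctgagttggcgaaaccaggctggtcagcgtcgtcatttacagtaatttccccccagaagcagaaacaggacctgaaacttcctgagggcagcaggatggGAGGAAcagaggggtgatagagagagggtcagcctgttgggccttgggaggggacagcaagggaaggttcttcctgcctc
C1qc: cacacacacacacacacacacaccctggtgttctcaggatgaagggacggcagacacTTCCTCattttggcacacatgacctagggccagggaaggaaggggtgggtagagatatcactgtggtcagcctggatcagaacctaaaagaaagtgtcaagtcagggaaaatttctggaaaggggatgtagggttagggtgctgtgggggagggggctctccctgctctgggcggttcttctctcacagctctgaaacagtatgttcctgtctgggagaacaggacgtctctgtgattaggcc
Cd5l: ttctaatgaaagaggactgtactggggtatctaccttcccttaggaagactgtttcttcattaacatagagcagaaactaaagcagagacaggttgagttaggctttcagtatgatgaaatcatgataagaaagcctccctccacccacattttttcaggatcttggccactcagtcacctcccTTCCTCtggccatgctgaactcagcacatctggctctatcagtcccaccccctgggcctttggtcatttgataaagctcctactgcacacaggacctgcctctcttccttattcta

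A linear trend over dose in FROZ was called for C1qa, C1qb and C1qc, 3 of the 9 markers, all downward, where 32.2% of genes had a trend and 7.73% a downward one. C1qb fell by 0.12 ± 0.03 log2 units per 100 mg/kg-d (limma, FDR 0.00527), C1qa by 0.10 ± 0.04 (FDR 0.0438) and C1qc by 0.10 ± 0.04 (FDR 0.0454). These calls were less stable than those at 427 mg/kg-d: 1 marker was left without animal 5, 6, 50, 52, 97, 98, 99 or 102, and 5 were called without animal 73 or 74. The slopes of the remaining 6 markers were also negative, from -0.03 for Clec4f to -0.09 for Adgre1. A called slope does not show an even fall over the doses. Against controls, C1qb differed by 0.02, -0.16 and -0.54 at 198, 313 and 427 mg/kg-d. The same differences were -0.18, -0.05 and -0.53 for C1qa, and -0.21, -0.14 and -0.48 for C1qc.

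The step between the upper doses was tested directly in the same fit, a comparison added after the data had been seen. Of the 9 markers, 1 was called between 427 and 313 mg/kg-d, Adgre1 (-0.58 ± 0.15, FDR 0.0343), where 3.07% of genes were called, 1.34% as lower. The differences of C1qa (-0.48), Cd5l (-0.51) and C1qb (-0.37) were of similar size but had an FDR of 0.0912, 0.0821 and 0.108. The Adgre1 call was lost without animal 73, 74, 75, 97, 99, 100, 101 or 102 (FDR 0.0502 to 0.0925) and without animals 74 and 76 together (FDR 0.0794), and 5 markers were called without animal 76. A difference between the responses at 313 and 427 mg/kg-d was therefore not shown for most markers.

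Of the 4 FROZ dose groups, 313 mg/kg-d had the largest SD for 7 of the 9 markers, all but Clec4f and Vsig4. Cd68 had an SD of 0.667 there against 0.218 in controls, and C1qc 0.477 against 0.0928. Animal 76 had the lowest value of the group for 7 of the 9 markers and animal 74 the highest for 7 of 9. The shares of all genes with these properties were not computed, so these counts cannot be read as particular to the markers. Cd68, for example, was 2.20 in animal 76 and 4.23 in animal 74, the lowest and the highest value of that gene in any FROZ library. The FROZ libraries of both animals correlated with their group at a median of 0.988 and 0.985, within the range of the others, and held 7.26 and 7.38 M reads.

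The markers also rose and fell together across animals within a dose. With the dose group means taken out, all 36 pairs of markers correlated positively over the 24 FROZ libraries, with a median r of 0.48 (0.15 to 0.82), where the median over all pairs of 7172 genes of at least 5 CPM was 0.02. The highest r was 0.82, between Cd68 and C1qa, and C1qa followed the mean of the other 8 markers most closely (r = 0.84). The lowest was 0.15, between Clec4f and Adgre1. The points are libraries of 1 animal each that also differ in depth, and the values are a description. Without animals 74 and 76, left out after their values were seen, the median r was 0.30 (-0.12 to 0.69) and 31 of 36 pairs were positive. Cd68 and C1qb, at 0.49 over 24 libraries, then correlated at -0.004.

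**Figure D3:**
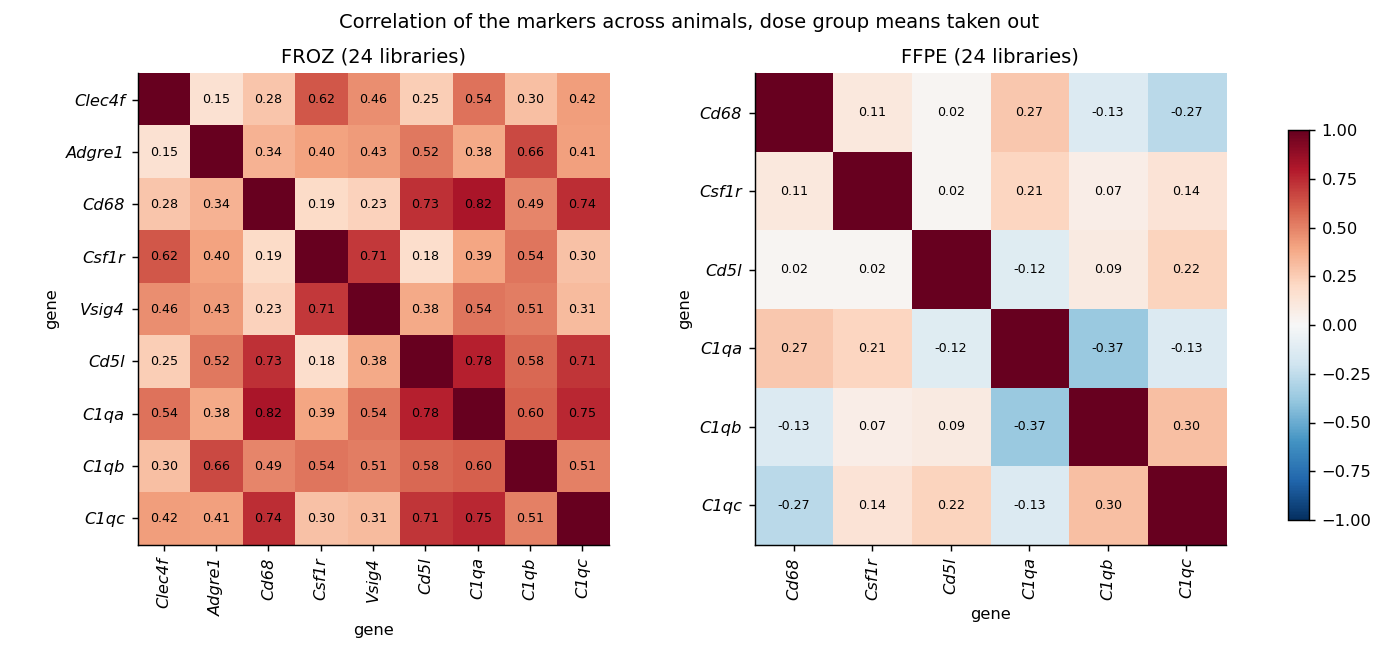
Pearson r between each pair of markers across 24 animals after dose group means were taken out, for the 9 markers of FROZ (left) and the 6 of FFPE (right); red is positive, blue negative, and both axes list the genes. All FROZ pairs are positive (0.15 to 0.82), while the FFPE pairs run from -0.37 to 0.30.

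Among 7136 genes of at least 5 CPM outside the markers and the wider macrophage list described further on, the 5 whose FROZ levels followed the mean of the markers most closely within dose groups were Atp6v1f (r = 0.84), Hpx (0.83), Fyb (0.79), Map3k7 (0.78) and Rps28 (0.78), each over 24 libraries. Atp6v1f encodes a subunit of the proton pump that acidifies lysosomes, Hpx the haem-binding plasma protein hemopexin, Fyb an adaptor of haematopoietic cells, Map3k7 a kinase of inflammatory signalling and Rps28 a ribosomal protein. Without animals 74 and 76 these values were 0.66, 0.78, 0.67, 0.72 and 0.65. At 427 mg/kg-d they did not share a direction: Hpx (-0.87) and Fyb (-0.43) were lower, and Atp6v1f (0.31), Map3k7 (0.37) and Rps28 (0.31) higher, with FDR values of 0.000505 to 0.0320. On the wider list, the receptor kinase Axl (r = 0.85) and the monocyte chemokine receptor Ccr2 (r = 0.83) followed the mean of the markers as closely; both were picked out once the values were known.

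A wider list of 56 macrophage genes, which covers transcription factors, growth factors, Fc and pattern receptors, proteases, monocyte genes and cytokines, held 45 genes listed in FROZ. At 427 mg/kg-d, 28 of the 45 estimates were negative, with a median difference of -0.14 against 0.10 over all genes. Of the 45 genes 6 fell and 0 rose, where 30.1% of all genes were called, 7.33% as lower. They were the endotoxin receptor Tlr4 (-0.71 ± 0.15, FDR 0.000519), the lysosomal proteases Lgmn (-0.43 ± 0.14) and Ctss (-0.45 ± 0.15), the lectin receptors Clec1b (-0.28 ± 0.10) and Siglec1 (-0.51 ± 0.18), and the Fc receptor Fcgr3 (-0.19 ± 0.07), the last 5 with an FDR of 0.020 to 0.038. At 198 mg/kg-d 0 of 45 were called. At 313 mg/kg-d, where 20.5% of all genes rose and 6.15% fell, 3 rose, the growth factor Csf1 (0.63 ± 0.12, FDR 0.000393) and the inflammatory mediators Ccl2 (1.73 ± 0.37, FDR 0.00109) and Il1b (0.67 ± 0.24, FDR 0.0400), and 1 fell, Clec1b (-0.32 ± 0.10, FDR 0.0184). These were not called at 427 mg/kg-d except Clec1b.

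The summed level of the 9 markers was lower at 427 mg/kg-d, while other cell types differed by list. C1qb and Cd5l, with medians of 135 and 55.6 CPM in FROZ controls, weigh most in this sum. A lower sum therefore does not show a fall of each marker. The sum was 243 to 323 CPM in FROZ controls (median 287), 250 to 286 at 198 mg/kg-d, 172 to 348 at 313 mg/kg-d and 155 to 227 at 427 mg/kg-d (median 214), where the highest treated animal was below the lowest control. For the 45 genes of the wider macrophage list the sums at that dose overlapped those of controls (955 to 1341 against 1155 to 1439 CPM). Of the endothelial list 1 of 11 fell at that dose, the sinusoidal scavenger receptor Stab2, and the sum was 278 to 321 CPM against 295 to 349 in controls. Of the stellate cell list 2 of 9 fell (Dcn and Colec11), with sums of 303 to 496 against 361 to 747 CPM. Erythroid genes were lower as well: 3 of 5 fell (Hba-a1, Hba-a2 and Alas2), with sums of 37.1 to 83.3 against 60.9 to 128 CPM.

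Of 10 hepatocyte genes, Apob and Fga fell and Hnf4a rose at 427 mg/kg-d, and 7 of the 10 estimates were negative. The sum was 37410 to 42194 CPM (median 38328) against 44136 to 50273 CPM (median 48223) in controls, so that here too every treated animal was below every control. The most abundant genes weigh most in this sum as well, so it does not show a fall of each hepatocyte gene. For all of these lists the share over all genes at that dose is the one given above, 30.1% called and 7.33% lower. None of the 5 T and NK cell, 3 B cell, 3 neutrophil, 3 cholangiocyte and 1 dendritic cell genes listed in FROZ was called at that dose. At 313 mg/kg-d, where 20.5% of all genes rose and 6.15% fell, 2 of the 3 neutrophil genes rose (S100a8 and Retnlg) and 1 had a negative estimate. At that dose 3 of 5 erythroid genes fell (Hba-a1, Hba-a2 and Alas2). Stab2, Dcn, Apob and Cyp2e1 also fell there, and the stellate gene Lrat rose. B cell sums were high in animals 53 (23.7 CPM), 101 (15.5 CPM) and 75 (8.22 CPM) against 1.42 to 2.77 CPM in controls. T and NK cell sums were high in the same 3 animals, at 30.6, 24.4 and 11.8 CPM against 3.09 to 7.01 CPM in controls. Median depth was 9.11 M reads in FROZ controls and 8.60 M at 427 mg/kg-d. The part of these cell types and of depth in the marker values was not tested.

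**Figure D4:**
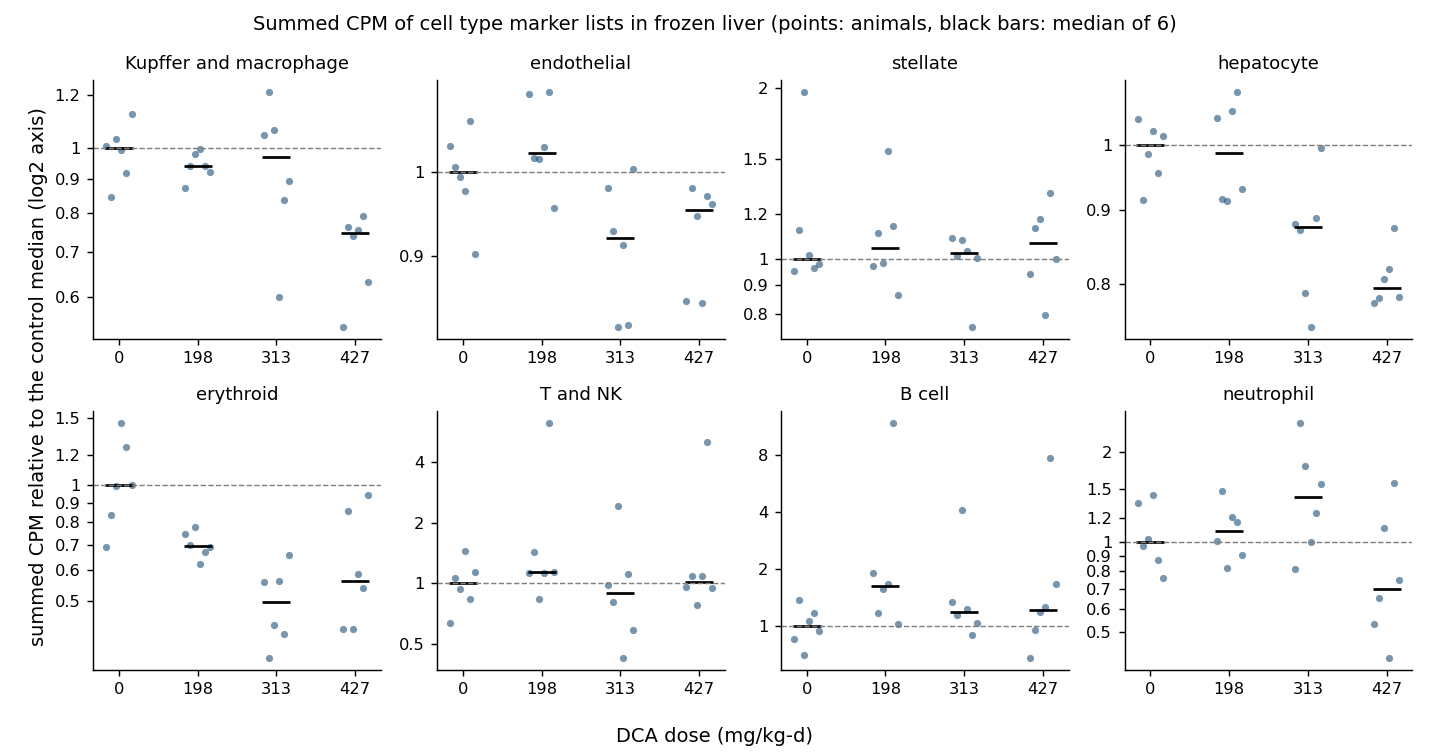
Summed CPM of each marker list in FROZ liver, divided by the median of the 6 controls (vertical log2 axis, scaled per panel), by DCA dose in mg/kg-d (horizontal axis); points are animals and black bars the median of 6. The Kupffer and macrophage sum and the hepatocyte sum both lie below all controls at 427 mg/kg-d, and the erythroid median is also lower there.

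In FFPE liver no marker was called by limma at any dose. At 427 mg/kg-d 0 of 6 passed, where 2.41% of genes did (0.869% as lower), and 2 had an unadjusted p under 0.05, both lower, as did 8.71% of genes in either direction; the exact rank sum test also gave 0. At 198 and 313 mg/kg-d 0 of 6 passed, against 0.0599% and 1.08% of genes, and 0 of 6 had an unadjusted p under 0.05, against 11.8% and 11.7%. The FFPE dose trend gave 0 of 6, where 2.17% of genes had one, and 1 of 6 at an unadjusted p under 0.05, where 9.16% did. C1qb lay between 7.17 and 8.03 in FFPE controls (median 7.68) and between 6.48 and 7.26 at 427 mg/kg-d (median 7.01), with 4 of 6 animals below all controls. Its difference was -0.64 ± 0.26 (FDR 0.335), in size like that of FROZ. With array quality weights, which give less weight to libraries that stand apart, C1qb was called (-0.70, FDR 0.00880).

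Cd5l lay between 4.32 and 7.11 in FFPE controls (median 4.95) and between 0 and 5.74 at 427 mg/kg-d (median 4.13), a difference of -1.62 ± 0.72 (FDR 0.461). The value of 0 was that of animal 102, in which 0 reads of 5.16 M allow up to 0.66 on this scale. C1qa lay between 5.18 and 6.16 in controls and, in 5 of 6 animals at 198 mg/kg-d, 4 of 6 at 313 and 5 of 6 at 427 mg/kg-d, below all of them. The C1qa differences were -1.33 ± 0.76, -1.40 ± 0.76 and -1.10 ± 0.76, none called (FDR 0.495, 0.490 and 0.869). Median FFPE depth was 5.28 M reads in controls, 3.38 M at 198 mg/kg-d, 3.82 M at 313 and 5.10 M at 427 mg/kg-d, with a median of 281.5, 983, 633 and 134.5 genes at 0 reads, and the part of depth in these differences was not tested.

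Of the 6 FFPE estimates at 427 mg/kg-d, 5 were negative, with a median of -0.62 against 0.18 over all genes. The 6 markers summed to 180 to 269 CPM there against 281 to 548 CPM in controls, so every treated animal was below every control. C1qb, at a median of 204 CPM in controls, weighs most in this sum. The FFPE hepatocyte sum was also below all controls (30586 to 34722 against 43362 to 56180 CPM). Apoa1 and Alb, with control means of 14.9 and 13.2 on the log2 scale, weigh most in the hepatocyte sum. Of the 9 hepatocyte estimates in FFPE, 7 were negative. The remaining FFPE markers did not share a direction. Csf1r differed by -0.48 ± 0.55 at 427 mg/kg-d, Cd68 by -0.60 ± 0.99 and C1qc by 0.22 ± 0.65, each with an FDR of 1.000. The within-dose SD of the 6 markers was 0.410 to 1.71 in FFPE (median 1.08) against a median of 0.292 for the same 6 in FROZ, and over all genes the medians were 1.36 and 0.241. The standard error of a 427 mg/kg-d difference in FFPE was 0.26 for C1qb and 0.55 to 0.99 for the other 5 markers, each larger than the FROZ difference of the same gene, so changes of the size seen in FROZ were not detectable for those 5. Cd68 was at 0 reads in animals 54 and 75 and C1qa in animal 75.

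**Figure D5:**
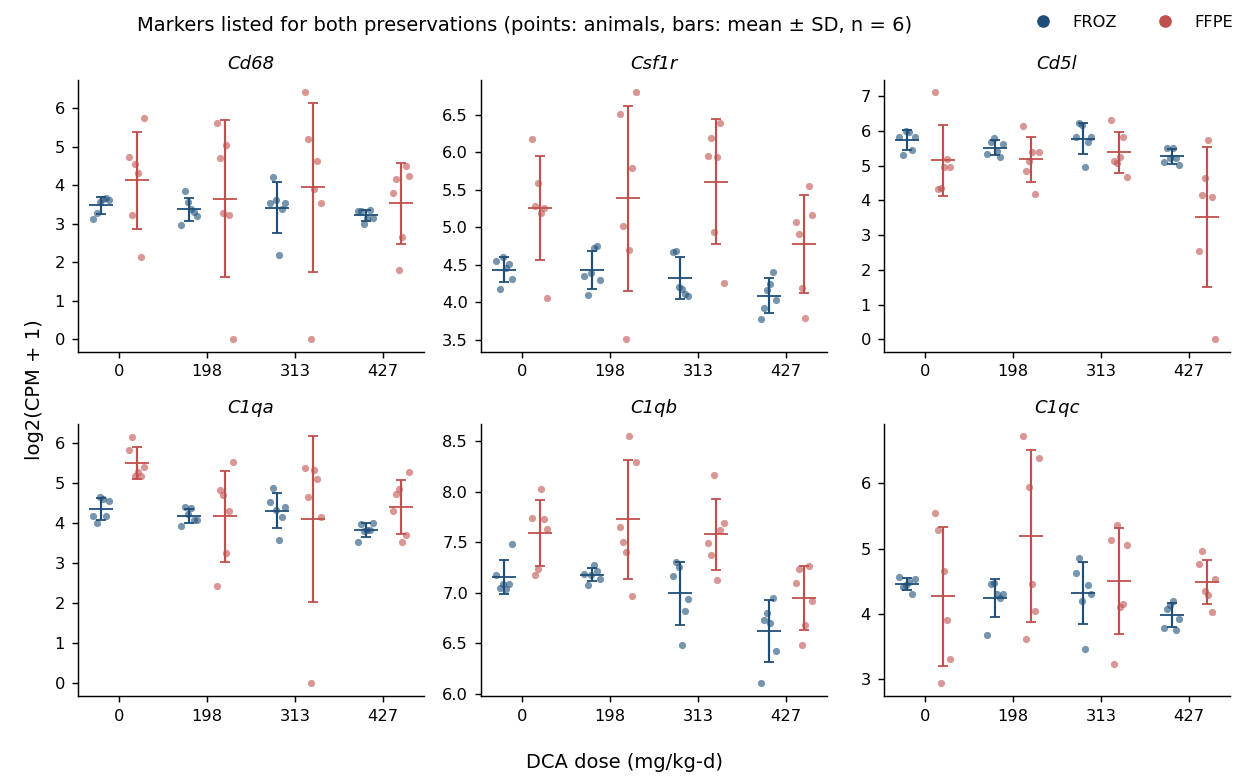
Level of the 6 markers listed for both preservations, as log2(CPM + 1) on the vertical axis (scaled per panel), by DCA dose in mg/kg-d, with FROZ in blue and FFPE in red; points are animals and bars the mean with SD of 6. FFPE values scatter more widely than FROZ values of the same animals, and Cd68, Cd5l and C1qa reach 0 in 1 or 2 FFPE libraries each.

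Whether preservation changed the measured level was tested within animals, as the FFPE minus FROZ difference of each. Over the 24 animals, 3 of the 6 markers differed (limma, FDR under 0.05), where 75.8% of genes did (41.8% higher and 34% lower in FFPE). Csf1r was higher in FFPE by 0.94 ± 0.20 log2 units (FDR 0.000121) and C1qb by 0.47 ± 0.10 (FDR 8.3e-05), while Cd5l was lower by 0.76 ± 0.23 in FFPE (log2 difference -0.76, FDR 0.00505). C1qa (0.37 ± 0.27), C1qc (0.36 ± 0.23) and Cd68 (0.44 ± 0.34) were not called, and C1qa was called without animal 75 (0.58, FDR 0.0115). Fixation, RNA extraction, lobe and library set cannot be told apart in this difference.

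The DCA response itself was not shown to differ between preservations. The interaction of dose and preservation gave 0 of 6 markers at each dose by limma, against 0.0303% of genes at 198 mg/kg-d, 0% at 313 and 0.0303% at 427 mg/kg-d. It also gave 0 of 6 at an unadjusted p under 0.05, against 12%, 8.19% and 2.38% of genes. For C1qb the response at 427 mg/kg-d was -0.11 ± 0.27 in FFPE relative to FROZ (95% interval -0.67 to 0.45), and for Cd5l -1.16 ± 0.66 (-2.52 to 0.21). These 2 intervals hold a difference as large as the FROZ response (-0.54 for C1qb and -0.46 for Cd5l) only as a larger fall in FFPE. Their upper ends, 0.45 and 0.21, are smaller than that response. For C1qa, C1qc, Cd68 and Csf1r the intervals hold differences of that size in both directions.

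Animals high in FROZ were not consistently high in FFPE. With dose group means taken out, r between the 2 values of an animal ran from -0.21 for C1qc to 0.24 for Cd5l (24 animals; permutation within dose groups, two-sided; Benjamini-Hochberg adjusted over the 6591 shared genes, FDR 0.674 to 0.950), and Spearman's rho from -0.12 to 0.19. The raw permutation p was 0.177 for Cd5l, 0.369 for C1qb, 0.371 for C1qc, 0.559 for Csf1r, 0.719 for Cd68 and 0.780 for C1qa. Of all shared genes 11% had an unadjusted permutation p under 0.05, and the median r was 0.09. Leaving out the 2 animals farthest from the FROZ median gave r from -0.19 to 0.25. The markers also did not move together in FFPE, where 10 of 15 pairs were positive and the median r was 0.07, against 0.58 for the same 15 pairs in FROZ.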

How the data were processed

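TempO-Seq was run on paired FROZ and FFPE livers of 24 mice, 6 per DCA dose. The authors trimmed and aligned the reads to mm10 with STAR (2.6, per the labels) in Partek Flow, counted them on RefSeq transcripts, removed genes of low geometric mean and scaled each library. The deposited values are log2(CPM + 1) of the listed genes, 1 table per preservation, with no batch given in the sources used here. CPM sum to 1000000 per library, and 83.8 to 97.4% of low values per library came within 0.1 of whole reads, from which depth was recovered.

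Doses were compared with vehicle controls by limma 3.58.1 (R 4.3.3) with eBayes trend, over all listed genes of a table and all 24 libraries, with Benjamini-Hochberg adjustment (FDR). A second call added a fold change above 2. Folds are on the CPM + 1 scale and understate changes of low genes. FFPE and FROZ were compared by the difference within each animal, which is the pairing; deviations of the same animal correlated at a median r of 0.11 over genes against -0.02 between animals, and 21 of 24 animals matched their own best. Correlations used 100000 permutations of animals within doses, two-sided. Animals are separate mice, with 1 library per preservation, so differences were tested against the spread between libraries of different animals. Differences between animals and noise of the measurement cannot be told apart in that spread. Limits for a value of 0 (3 reads, 95% level) cover counting error only.

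The markers, the wider macrophage list and the cell type lists (endothelial, stellate, cholangiocyte, T and NK, B cell, neutrophil, dendritic, erythroid, hepatocyte) were chosen with earlier results of these data known. All 10 markers are named, as are the genes of the wider list past an FDR of 0.05 at 427 mg/kg-d in FROZ and the 5 genes most like the markers; Csf1, Ccl2, Il1b, Axl, Ccr2 and the genes of the cell type lists were named after their values were seen. Positions are from GRCm38 (GENCODE vM21). Alternatives were other offsets (0.1 and 0.0001 CPM), median-ratio scaling, a minimum of 5 CPM, a prior without trend, array weights, the 2 groups alone, an exact rank sum test, dose as its rank, CPM rescaled over the shared genes, no block and leaving out animals. The fit without animals 74 and 76 and the comparison of 427 with 313 mg/kg-d were added after the data had been seen.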

Additional observations from a re-analysis of the deposited data

Results flagged for a closer look

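In 7 of the 60 groups of 6 libraries, 1 library lay apart from the other 5 by Dixon's gap test. Chance gives about 1 in 20 for independent, normally distributed groups. These groups share libraries, and the share over all genes was not computed, so the count cannot be read as particular to the markers. In FROZ controls, Clec4f was 2.50 in animal 4 against 3.04 to 3.21 in the others, Adgre1 was 3.08 in animal 3 against 2.66 to 2.80, and C1qb was 7.48 in animal 8 against 7.04 to 7.18. In FROZ at 198 mg/kg-d, C1qc was 3.68 in animal 49 against 4.25 to 4.48, and at 427 mg/kg-d Vsig4 was 0.65 in animal 97 against 1.42 to 1.87. In FFPE, Cd5l was 7.11 in control animal 3 against 4.32 to 5.19, and C1qa was 0 in animal 75 at 313 mg/kg-d against 4.16 to 5.37. Values are log2(CPM + 1). Clec4f was not called at 427 mg/kg-d in any fit, including the one without animal 4 (FDR 0.124 at the lowest over the fits that left out 1 animal).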

How the results depend on the processing

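Of the FROZ markers at 427 mg/kg-d, Adgre1, C1qa, C1qb and C1qc were called under all 8 other settings that kept every animal of the 2 groups compared, Cd5l under 7 (FDR 0.0813 by the exact rank sum test) and Csf1r under 6 (0.0525 without the variance trend, 0.0554 by rank sum). The count ran from 3 to 6 of 9 when 1 animal was left out. The FROZ trend count, 3, was 6 under median-ratio scaling, 5 with dose as its rank, and 1 to 5 leaving out 1 animal. The count between 427 and 313 mg/kg-d, 1, was 2 without animals 74 and 76 and 0 to 5 leaving out 1. The FFPE count at 427 mg/kg-d was 1 with array weights, and 0 otherwise. The cause was not tested in each case. Without the animal as block, the FFPE minus FROZ count stayed at 3 of 6 markers (4985 of all genes against 4994), and the block changed no other marker call; CPM rescaled over the shared genes also left 3 of 6.

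Over all genes, the FROZ count at 198 mg/kg-d, 176, ran from 0 (exact rank sum) to 290; between 427 and 313 mg/kg-d, 346 became 165 without animals 74 and 76; the FFPE counts of 4, 72 and 161 ran from 0 to 7, from 0 to 76 and from 94 to 524.

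Sign changes were limited to estimates that were not called under either setting (72 in all, the lowest FDR 0.434). Median-ratio scaling gave -0.011 for Adgre1 and -0.065 for C1qb at 198 mg/kg-d in FROZ, and -0.036 for Adgre1, -0.090 for Cd5l and -0.12 for Clec4f at 313. Array weights gave -0.022 for Clec4f at 313 in FROZ, and -0.011 for C1qb and -0.55 for Csf1r at 198 in FFPE. Without animals 74 and 76, Cd68 was 0.036 (FROZ) and C1qb 0.15 (FFPE) at 313. The FFPE slope of C1qc was -0.0028 with dose as its rank, and the C1qa correlation between preservations was 0.032 without the 2 farthest animals. Leaving out 1 animal, FROZ differences ran from -0.16 to 0.10 (C1qa), -0.25 to 0.027 (C1qc), -0.039 to 0.22 (Cd5l), -0.23 to 0.18 (Cd68) and -0.11 to 0.048 (Clec4f) at 313, from -0.063 to 0.066 (Csf1r) at 198, and from -0.21 to 0.037 (Vsig4) between 427 and 313. FFPE differences ran from -0.026 to 0.29 (C1qb), -0.17 to 0.42 (Cd5l), -0.87 to 0.25 (Cd68) and -0.16 to 0.50 (Csf1r) at 198, from -0.13 to 0.081 (C1qb), -0.031 to 0.49 (C1qc) and -0.68 to 0.61 (Cd68) at 313, from -0.048 to 0.47 (C1qc) at 427, and from -0.046 to 0.072 for the C1qc slope. Interactions ran from -0.032 to 0.27 (C1qb), -0.85 to 0.32 (Cd68) and -0.18 to 0.49 (Csf1r) at 198, from -0.030 to 0.55 (Cd5l) and -0.58 to 0.72 (Cd68) at 313, and from -0.24 to 0.020 (C1qb) and -0.35 to 0.10 (Csf1r) at 427.

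FFPE depth went down to 1.83 M reads. Marco expression was not analysed here.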
